A study of Mus musculus with 6 samples.

Results

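Replication-dependent histone genes encode the H1, H2A, H2B, H3 and H4 proteins that package newly copied DNA. Here they were all genes of the deposited count table whose symbol has the current or older form of these names (H1f1 to H1f6, and H2ac, H2bc, H3c and H4c with a number), without pseudogene names. The rule found 66 of the 53819 genes in the table: 7 for H1, 18 for H2A, 17 for H2B, 12 for H3 and 12 for H4. It also took in H1f10, which encodes the replication-independent linker histone H1X, and the testis variants H1f6 (H1t), H2ac1 (TH2A) and H2bc1 (TH2B). These 4 genes are kept among the 66 and pointed out where they appear.

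The samples were mouse gastruloids, which are 3-dimensional aggregates of embryonic stem cells that model the early body axis, all made from the E14 stem cell line. In 3 of them the aggregates had been given budesonide, a synthetic glucocorticoid, for 80 h, and the 3 others were untreated. By its title and design text, the series examines gene expression in gastruloids given budesonide, with attention to cell adhesion, symmetry breaking and pluripotency. The labels name a stranded mRNA kit for all 6 libraries, give no genotype change and no passage or sex, and do not say whether the replicates came from separate cultures, so p-values measure how these 6 samples varied, and that variation may be technical. Libraries held from 5666168 to 7476862 counted reads.

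In dividing cells these genes are switched on together at the start of S phase by cyclin E and CDK2 acting on NPAT in the histone locus body, a nuclear body that forms on the histone gene clusters. Their transcripts have no introns and, unlike other mRNAs, end in a conserved stem-loop instead of a poly(A) tail. The stem-loop is bound by SLBP, the U7 snRNP guides the cut after it, and the transcripts are degraded at the end of S phase after uridines are added to their ends. Pluripotent stem cells spend much of their cycle in S phase. A minority of the genes can also give transcripts with a poly(A) tail. The mRNA kit named in the labels captures RNA through its poly(A) tail, so levels here are those of what such a library retains of these transcripts, and the share of each gene's transcripts with a tail was not measured.

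The stem-loop is shown because it is the feature that sets these transcripts apart. A search of the reference transcripts (GENCODE M21) for the stem-loop consensus on the coding strand found it in 41 of the 65 members that could be matched, in 6 forms. The most frequent form was shared by 24 members of the H1, H2A, H2B and H3 types, and the forms with GGCC at the outer stem were found in H4 genes alone among these 41 members. Capitals mark the 16 bases of the stem and loop, with 5 flanking bases on each side, and the genes are examples of each form:
H1f4: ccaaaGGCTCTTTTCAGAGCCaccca
H2bc3: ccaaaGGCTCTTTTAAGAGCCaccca
H4c4: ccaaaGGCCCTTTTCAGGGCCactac
H4c2: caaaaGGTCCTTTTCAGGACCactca
H4c9: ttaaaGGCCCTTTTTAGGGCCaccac
H2ac20: aaaaaGGCTCTTTTTAGAGCCaccaa
A member without the letters in its reference transcript may have an annotation that stops before them, so the 24 members without a match are not said to lack a stem-loop.

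The bases before the start site are shown for 6 genes that differ in the results below: H2bc9, H1f4, H3c4 and H4c2, which fell in budesonide-treated gastruloids, and H2bc3 and H1f2, which did not pass the test. Each is the 150 bases that end at the annotated start site, from RefSeq (GRCm38.p6), with capitals at matches, on either strand, to the CCAAT box (CCAAT), the TATA box (TATAAA), the octamer bound by OCT1 (ATTTGCAT) and the H1 box (AAACACA):
H2bc9, chr13:23543445-23543594, minus strand: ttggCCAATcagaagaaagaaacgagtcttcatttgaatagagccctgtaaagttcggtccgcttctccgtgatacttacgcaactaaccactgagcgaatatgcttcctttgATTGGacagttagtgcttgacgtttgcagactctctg
H2bc3, chr13:23746584-23746733, plus strand: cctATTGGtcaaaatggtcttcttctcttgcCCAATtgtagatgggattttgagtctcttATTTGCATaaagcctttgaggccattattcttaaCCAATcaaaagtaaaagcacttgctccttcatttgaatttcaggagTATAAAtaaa
H1f4, chr13:23622559-23622708, minus strand: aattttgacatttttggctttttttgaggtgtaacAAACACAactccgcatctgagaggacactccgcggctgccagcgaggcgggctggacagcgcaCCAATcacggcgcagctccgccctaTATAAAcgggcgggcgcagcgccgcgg
H1f2, chr13:23738657-23738806, plus strand: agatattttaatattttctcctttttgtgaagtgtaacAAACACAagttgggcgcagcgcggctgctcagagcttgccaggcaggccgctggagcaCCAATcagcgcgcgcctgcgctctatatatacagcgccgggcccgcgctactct
H3c4, chr13:23575613-23575762, plus strand: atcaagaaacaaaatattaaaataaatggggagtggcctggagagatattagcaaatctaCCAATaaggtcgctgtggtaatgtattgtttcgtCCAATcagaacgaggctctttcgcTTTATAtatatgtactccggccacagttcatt
H4c2, chr13:23756787-23756936, plus strand: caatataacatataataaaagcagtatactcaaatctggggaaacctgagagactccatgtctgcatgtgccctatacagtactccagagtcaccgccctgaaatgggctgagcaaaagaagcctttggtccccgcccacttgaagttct
Over 250 bases before to 50 bases after the start site, CCAAT was present in 84.75% of the 59 members with a promoter entry and in 37.41% of all 32851 promoters in the table. It was present in all 17 H2A, 14 H2B and 10 H3 promoters and in 3 of 11 H4 promoters. TATAAA was present in 57.63% of the members and 13.62% of all promoters. The octamer was present in 6 of 14 H2B and 6 of 17 H2A promoters, and in 1.74% of all promoters. The H1 box was present in 5 of 7 H1 promoters and in 7.18% of all promoters. These are letter matches only.

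Most histone genes that could be tested were lower in budesonide-treated gastruloids by edgeR, the main test, and none rose. Of the 66 genes, 55 had enough reads for the test, edgeR's quasi-likelihood test with Benjamini-Hochberg adjustment over all 17155 tested genes and a threshold of 0.05. Of these 55, 30 fell, while 13.5% of all tested genes fell and 15.2% rose, and 28.7% changed in either direction. No member rose by edgeR, by an unadjusted p under 0.05 (0 genes) or by DESeq2 (0 genes). The differences were small, with a median log2 fold change (budesonide over untreated) of -0.31, against -0.02 over all tested genes. A total of 53 of the 55 fold changes were below 0, against 51.9% of all tested genes. In 29 of the 55, all 3 budesonide libraries were below all 3 untreated libraries, which was so for 19.8% of all tested genes. DESeq2 called 14 of the 30 lower, and did not call H1f3, H1f5, H1f6, H2ac4, H2ac6, H2ac11, H2ac12, H2bc1, H2bc4, H2bc8, H2bc13, H3c2, H3c7, H3c8, H4c1 and H4c12. Without the edgeR filter, DESeq2 gave fold changes for 48367 genes, 64 members among them. It called 3283 genes changed, 60.2% of them higher, in place of 4917 in edgeR, 52.9% of them higher. Bulk RNA cannot tell fewer cells in S phase from less histone RNA per cell.

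Levels are in TMM-scaled CPM, the reads of a gene per 1000000 counted reads of its library after a scaling that corrects for library size and composition. Summed over all 66 genes, histone RNA was 3427, 3130.2 and 3658 CPM in the budesonide libraries and 4131, 3990.1 and 3977 CPM in the untreated libraries. The groups did not overlap, and the budesonide mean was 15.6% below the untreated mean. The ratio of the group means was 0.844, and between 0.813 and 0.878 when any 1 library was left out. As a share of all counted reads, the members made up 0.305% to 0.351% in the budesonide libraries and 0.399% to 0.423% in the untreated libraries. The H1 genes gave 51.1% to 52.8% of the members' reads in the budesonide libraries and 46.2% to 51.5% in the untreated libraries.

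**Figure D1:**
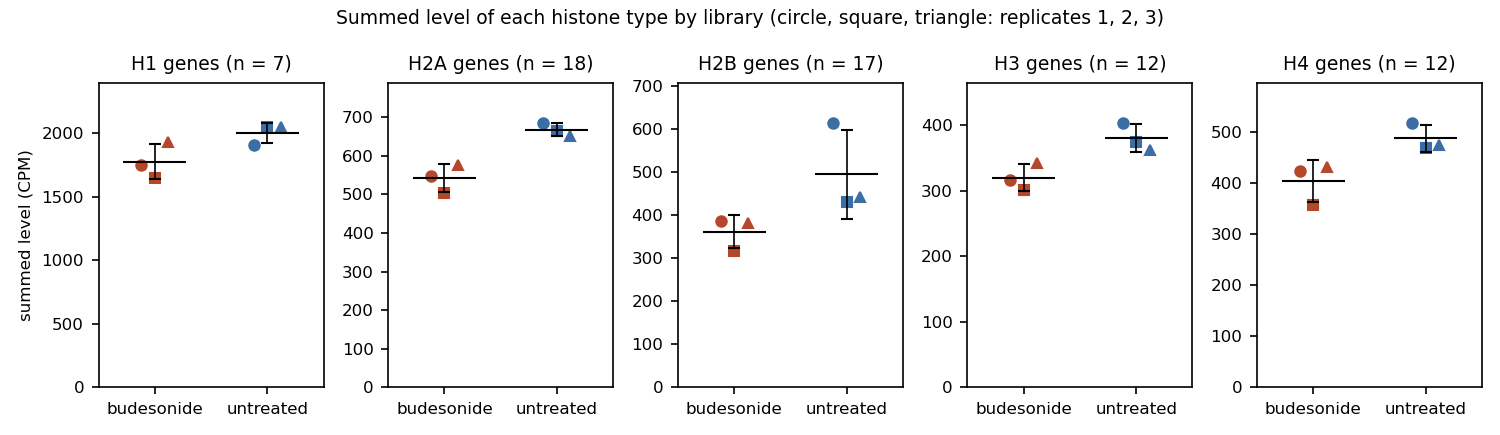
Summed level of the members of each histone type (vertical axis, TMM-scaled CPM, from 0) in each budesonide (left) and untreated (right) library; points are libraries, lines are means and bars are SD (n = 3 each). The H2B panel shows untreated replicate 1 at 614 CPM, above the other untreated libraries at 430 and 441 CPM.

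By type, the summed level was lower in the budesonide libraries for H2A, H2B, H3 and H4 without overlap, and overlapped for H1. H1 summed to 1752, 1651 and 1929 CPM in the budesonide libraries and 1909, 2052 and 2046 CPM in the untreated libraries, with budesonide replicate 3 above untreated replicate 1. H2A summed to 548, 503 and 575 CPM in the budesonide libraries and 686, 665 and 652 CPM in the untreated libraries. H2B summed to 386, 317 and 381 CPM in the budesonide libraries and 614, 429.8 and 441 CPM in the untreated libraries, where untreated replicate 1 stood high. For H3 and H4 the untreated libraries lay closer together. Sums for H3 were 317, 301 and 342 CPM in the budesonide libraries and 404, 375 and 362 CPM in the untreated libraries. Sums for H4 were 424, 358 and 432 CPM in the budesonide libraries and 518, 468 and 475 CPM in the untreated libraries. The ratios of group means were 0.888 for H1, 0.812 for H2A, 0.729 for H2B, 0.841 for H3 and 0.830 for H4, and no test of a difference between types was made.

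**Figure D2:**
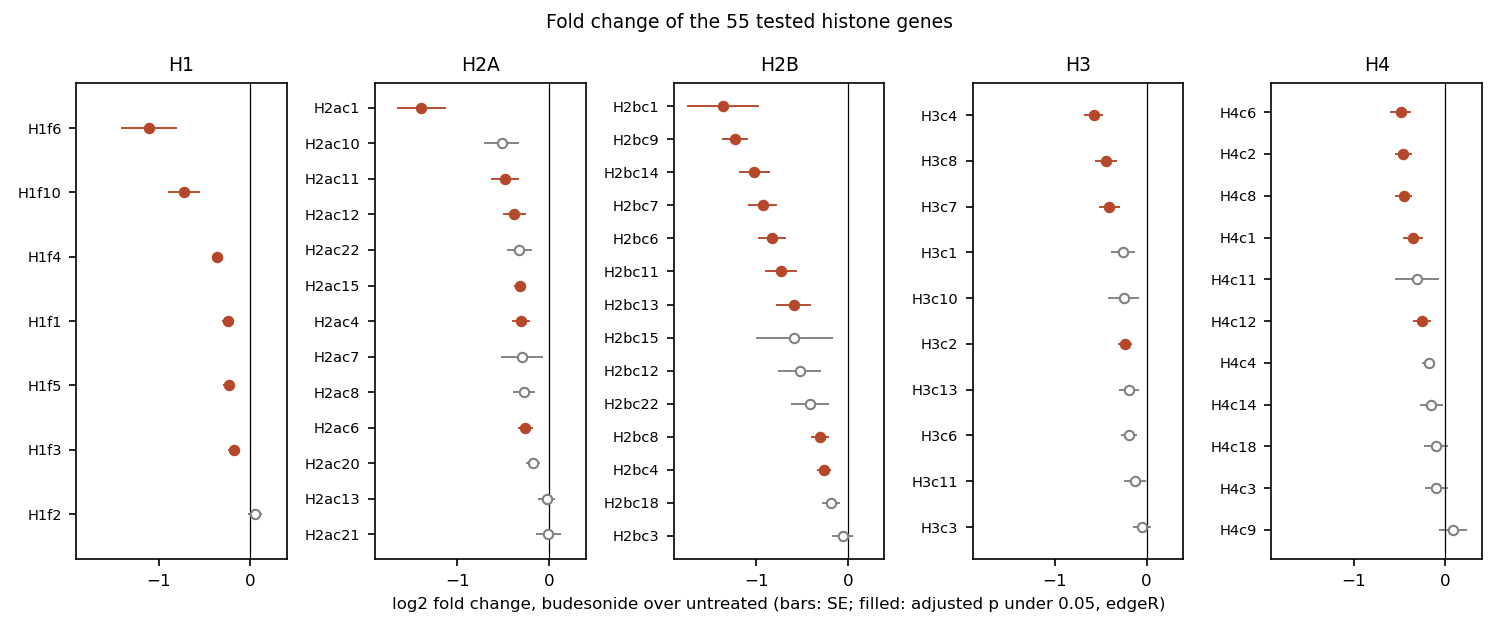
Log2 fold change of the 55 tested histone genes (horizontal axis, budesonide over untreated; bars, SE), one panel per type; filled points passed the threshold in edgeR. All filled points lie below 0, and 2 open points, H1f2 and H4c9, lie above it.

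Linker histones bind the DNA that enters and leaves the nucleosome. Of the 7 H1 genes 6 fell, the testis variant H1f6 and H1f10 among them, with a median log2 fold change of -0.25. H1f4, a main somatic linker histone, had 402, 372 and 428 CPM in the budesonide libraries and 482, 519.8 and 538 CPM in the untreated libraries, and the groups did not overlap (log2 fold change -0.36 ± 0.06 SE, adjusted p = 2.48e-06 by edgeR). H1f1 had 199, 184 and 194 CPM in the budesonide libraries and 219, 229.6 and 236 CPM in the untreated libraries (log2 fold change -0.25 ± 0.06 SE, adjusted p = 0.00109 by edgeR). H1f5 had 148, 137 and 139.7 CPM in the budesonide libraries and 154, 169.7 and 176 CPM in the untreated libraries (log2 fold change -0.23 ± 0.06 SE, adjusted p = 0.00409 by edgeR). Both were lower in every budesonide library, by 1.19-fold for H1f1 and 1.17-fold for H1f5. The call for H1f1 held in DESeq2 and in all 6 fits that left out 1 library, while that for H1f5 was lost in DESeq2 (adjusted p = 0.0503) and in edgeR without untreated replicate 3 (adjusted p = 0.065).

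H1f3 had 409, 384 and 418 CPM in the budesonide libraries and 392, 493 and 480.4 CPM in the untreated libraries (log2 fold change -0.17 ± 0.07 SE, adjusted p = 0.0415 by edgeR). Untreated replicate 1 lay within the budesonide range, and the call was lost in 4 of the 6 fits that left out 1 library. H1f2 was the exception among the H1 genes and the member with the highest level per length, at 389 CPM per kb in the budesonide libraries and 375 CPM per kb in the untreated libraries. It had 560.4, 549 and 712 CPM in the budesonide libraries and 594, 593 and 569.5 CPM in the untreated libraries (log2 fold change 0.05 ± 0.08 SE, adjusted p = 0.69 by edgeR). Its groups overlapped, with budesonide replicate 3 the highest of all 6, and its fold change was below 0 with upper quartile scaling, without scaling factors and without budesonide replicate 3. H1f10, the replication-independent H1X, named here because of its place in the rule, had 31.4, 23.1 and 33.8 CPM in the budesonide libraries and 60.8, 41.9 and 42.9 CPM in the untreated libraries (log2 fold change -0.73 ± 0.18 SE, adjusted p = 0.0109 by edgeR), with no overlap.

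H2A genes encode a partner in the H2A-H2B dimer. Their log2 fold changes ran from -1.39, for the testis variant H2ac1, to -0.01, and the next most negative was H2ac10 at -0.52. Of 18 genes 13 were tested and 6 fell, H2ac1 among them. H2ac15, the H2A gene with the highest level per length (299 CPM per kb in the budesonide libraries and 373 CPM per kb in the untreated libraries), had 120.3, 107 and 125 CPM in the budesonide libraries and 159, 141 and 140.3 CPM in the untreated libraries and fell (log2 fold change -0.32 ± 0.07 SE, adjusted p = 0.000215 by edgeR). Its groups did not overlap. H2ac10 (245 CPM per kb in the budesonide libraries and 351 CPM per kb in the untreated libraries) had 104, 84.6 and 105 CPM in the budesonide libraries and 175, 125 and 120.3 CPM in the untreated libraries, also without overlap, but did not pass the test (log2 fold change -0.52 ± 0.19 SE, adjusted p = 0.121 by edgeR). The 3 untreated values of H2ac10 spread more than those of H2ac15, with replicate 1 on top.

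H2ac6, which in human cells is known also to give polyadenylated transcripts, had 54.8, 56.8 and 53.9 CPM in the budesonide libraries and 62.7, 64.4 and 71.2 CPM in the untreated libraries (log2 fold change -0.26 ± 0.08 SE, adjusted p = 0.0103 by edgeR). Its call was lost in DESeq2 (adjusted p = 0.107) and in edgeR without untreated replicate 3 (adjusted p = 0.124). H2ac4, H2ac11 and H2ac12 fell in edgeR with log2 fold changes of -0.31, -0.48 and -0.38, and were among the 16 members that DESeq2 did not call. H2ac20 had 84.8, 70.9 and 93.03 CPM in the budesonide libraries and 89.9, 89.4 and 100.2 CPM in the untreated libraries, with overlapping groups (log2 fold change -0.17 ± 0.08 SE, adjusted p = 0.0937 by edgeR). H2ac13, chosen after its values were seen for a fold change near 0, had 57.2, 58.7 and 64.3 CPM in the budesonide libraries and 49.2, 69.2 and 64.3 CPM in the untreated libraries (log2 fold change -0.03 ± 0.09 SE, adjusted p = 0.879 by edgeR). Only 9.90% of its 50-base windows were in no other gene, so its reads may be shared with copies. The same holds for members called lower, among them H2ac12 (9.30%), H2bc13 (17.2%), H2ac11 (21.1%), H2bc7 (34.2%), H4c2 (45.4%) and H2ac15 (47.7%). It also holds for H2bc15 (13.6%), H2ac10 (20.3%) and H2bc12 (25.8%), which were not called.

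H2B genes encode the partner of H2A. Their log2 fold changes ran from -1.36, for the testis variant H2bc1, to -0.05, and their median was -0.59. That was the most negative median of the 5 types with all libraries, but not without untreated replicate 1, where it was -0.28, against -0.32 for H2A. Of 17 genes 14 were tested and 9 fell, H2bc1 among them. H2bc9 had 11.4, 9.57 and 11.6 CPM in the budesonide libraries and 30.9, 23.8 and 21.8 CPM in the untreated libraries, and each budesonide value was far below each untreated value (log2 fold change -1.24 ± 0.14 SE, adjusted p = 1.53e-09 by edgeR). That is 2.36-fold lower, and the call held in all 6 fits that left out 1 library, with adjusted p-values up to 6.19e-08. H2bc14 had 12.1, 12.7 and 12.5 CPM in the budesonide libraries and 34.5, 20.7 and 20.6 CPM in the untreated libraries (log2 fold change -1.02 ± 0.17 SE, adjusted p = 4.06e-05 by edgeR). H2bc7 had 8.73, 7.21 and 10.5 CPM in the budesonide libraries and 17.8, 14.6 and 17.6 CPM in the untreated libraries (log2 fold change -0.93 ± 0.16 SE, adjusted p = 8.28e-06 by edgeR). H2bc6 had 27.6, 18.1 and 21.9 CPM in the budesonide libraries and 49.4, 36.1 and 34.9 CPM in the untreated libraries (log2 fold change -0.83 ± 0.15 SE, adjusted p = 0.00031 by edgeR). In all 4 genes every budesonide library was below every untreated one.

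H2bc4, the H2B gene with the most reads, had 86.1, 75.9 and 86.4 CPM in the budesonide libraries and 114, 89.6 and 92.9 CPM in the untreated libraries (log2 fold change -0.26 ± 0.08 SE, adjusted p = 0.0105 by edgeR). Its call was lost in DESeq2 (adjusted p = 0.131), in limma (adjusted p = 0.0508) and in edgeR without budesonide replicate 2 (adjusted p = 0.108) or without untreated replicate 1 (adjusted p = 0.242). Its human counterpart is another gene known to give polyadenylated transcripts as well. H2bc3 had 54.8, 41.5 and 56.6 CPM in the budesonide libraries and 61.7, 45.6 and 51.1 CPM in the untreated libraries (log2 fold change -0.05 ± 0.12 SE, adjusted p = 0.789 by edgeR), and its groups overlapped. H2bc12 had 36.9, 27.96 and 43.9 CPM in the budesonide libraries and 65.7, 43.7 and 46.03 CPM in the untreated libraries (log2 fold change -0.53 ± 0.24 SE, adjusted p = 0.181 by edgeR), where untreated replicates 2 and 3 were close to budesonide replicate 3. H2bc11, chosen after its values were seen because it was called in all 15 fits tried at the 0.05 threshold, had 16.6, 12.95 and 17.8 CPM in the budesonide libraries and 34.9, 21.8 and 21.7 CPM in the untreated libraries (log2 fold change -0.73 ± 0.17 SE, adjusted p = 0.0031 by edgeR).

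Untreated replicate 1 was the highest untreated library in 14 of the 14 tested H2B genes and in 35 of all 55 members, these H2B genes included. For the other types it was the highest in 8 of 10 H3, 7 of 11 H4, 3 of 7 H1 and 3 of 13 H2A genes. Without it, the summed H2B ratio was 0.829 in place of 0.729, next to 0.823 for H2A, and 7 in place of 9 H2B genes fell. The sum of 13 small RNAs without a poly(A) tail had the same order of libraries within each group as the H2B sums. Untreated replicate 1 and budesonide replicate 1 were highest, and untreated and budesonide replicates 2 lowest. The sums were 1339, 840.1 and 1283 CPM in the budesonide libraries and 1035, 747 and 814 CPM in the untreated libraries. Most of each sum was Rmrp, at 1096, 655 and 1052 CPM in the budesonide libraries and 862, 593 and 655 CPM in the untreated libraries. Of the tested small RNAs, Rmrp, Scarna6 and Rnu12 had this order in both groups, and Rpph1, Rnu11, Scarna2 and Scarna13 did not. What the shared order of the sums has to do with the H2B values was not tested. H2bc15, chosen after its values were seen, had the order of the H2B sums in both groups, with untreated replicate 1 far above the other libraries. Its values were 54.3, 23.3 and 27.02 CPM in the untreated libraries and 27.2, 19.3 and 22.8 CPM in the budesonide libraries (log2 fold change -0.59 ± 0.42 SE, adjusted p = 0.408 by edgeR). H2bc13, at 15.4, 13.4 and 14.5 CPM in the budesonide libraries and 30.6, 17.2 and 17.6 CPM in the untreated libraries, was called lower with all libraries and in 2 of the 6 fits that left out 1.

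**Figure D3:**
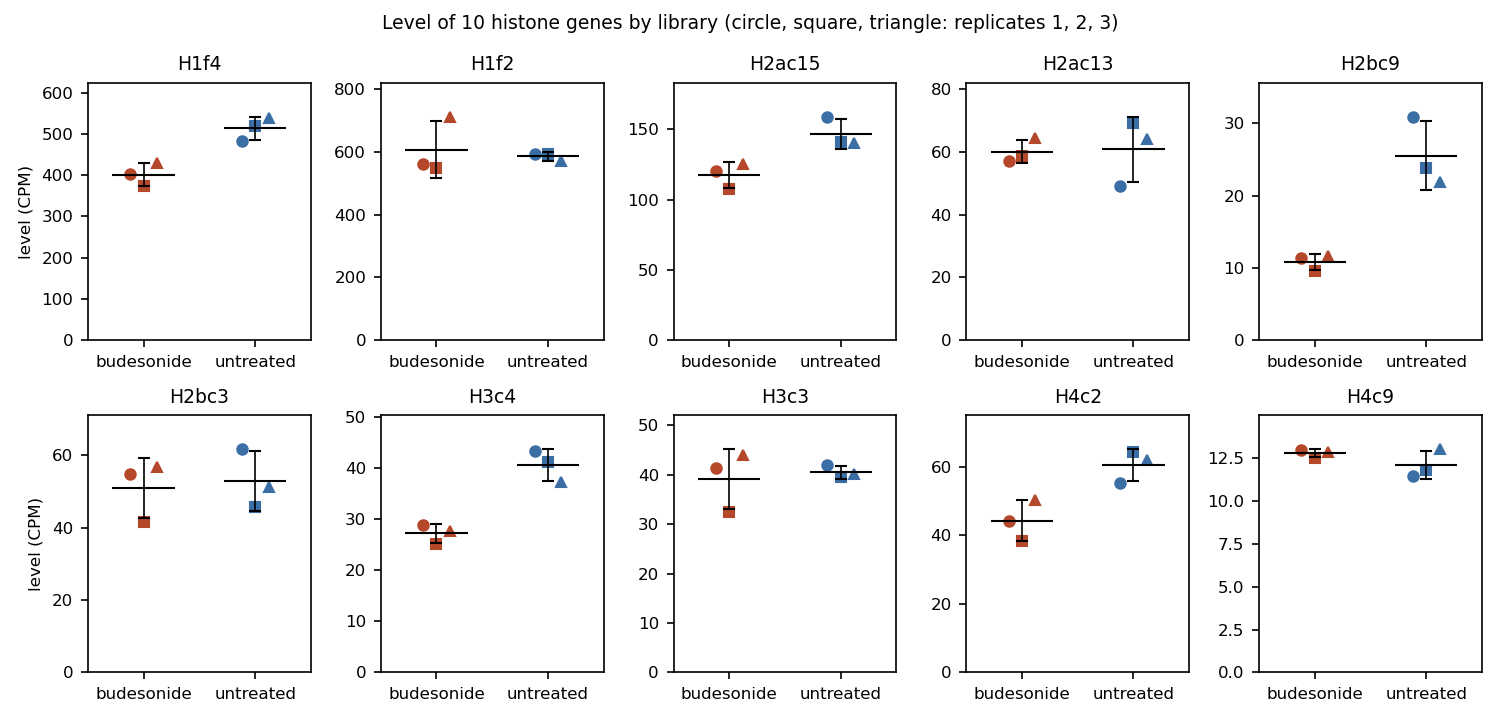
Level of 10 histone genes (vertical axes, TMM-scaled CPM, from 0) in each budesonide (left) and untreated (right) library, with means as lines and SD as bars (n = 3 each); each type has a gene that fell and a gene that did not pass the test. H2bc9 stayed at or under 11.6 CPM in the budesonide libraries and was at 21.8 CPM or above in the untreated libraries, while H1f2 overlapped between the groups.

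H2A and H2B genes often sit head to head and share the bases between their start sites. There were 9 such pairs in RefSeq that had start sites less than 600 bases apart, at 164 to 281 bases, and both genes were tested in 8. The H2B gene had the more negative fold change in 7 of the 8 with all libraries, but in 2 of 8 (H2bc13 and H2bc7) without untreated replicate 1, and in 5 to 8 of 8 when any other library was left out. The log2 ratio of H2B over H2A, each as CPM + 1, was lower in all budesonide libraries than in all untreated libraries for 1 pair, H2ac7 and H2bc7, at 0.71, 0.52 and 0.49 in the budesonide libraries and 1.64, 0.75 and 1.23 in the untreated libraries. In the other 7 tested pairs the ratio overlapped between the groups. H2B promoters with the octamer held 3 of 6 tested genes that fell, and those without it 5 of 7.

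H3 genes encode the replication-dependent H3 proteins that CAF-1 deposits behind the replication fork. Of 12 genes 10 were tested and 4 fell, with a median of -0.24. H3c4 had 28.9, 25.2 and 27.8 CPM in the budesonide libraries and 43.4, 41.3 and 37.2 CPM in the untreated libraries (log2 fold change -0.58 ± 0.10 SE, adjusted p = 1.13e-05 by edgeR), with no overlap. H3c8 had 17.9, 18.4 and 22.4 CPM in the budesonide libraries and 28.96, 25.4 and 24.7 CPM in the untreated libraries (log2 fold change -0.44 ± 0.12 SE, adjusted p = 0.00409 by edgeR). H3c7 had 20.99, 18.98 and 19.5 CPM in the budesonide libraries and 27.9, 24.5 and 26.7 CPM in the untreated libraries (log2 fold change -0.41 ± 0.12 SE, adjusted p = 0.00597 by edgeR). The call for each of these 3 held in all 6 fits that left out 1 library, and DESeq2 called H3c4 alone of them.

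H3c2, the H3 gene with the highest level per length of reference transcript at 97.7 CPM per kb in the budesonide libraries and 115 CPM per kb in the untreated libraries, had 60.02, 57.1 and 64.5 CPM in the budesonide libraries and 74.1, 70.9 and 68.7 CPM in the untreated libraries (log2 fold change -0.24 ± 0.08 SE, adjusted p = 0.0154 by edgeR), and its call held in 2 of the 6 fits that left out 1 library. The reference transcript of H3c2 ran 51 bases past the stem-loop and that of H3c6 369 bases, so this rank depends on the annotated ends. H3c6, with the most H3 reads, had 73.5, 64.01 and 77.8 CPM in the budesonide libraries and 93.9, 78.7 and 72.6 CPM in the untreated libraries (log2 fold change -0.19 ± 0.08 SE, adjusted p = 0.0845 by edgeR). H3c3 had 41.3, 32.4 and 43.9 CPM in the budesonide libraries and 41.9, 39.5 and 40.1 CPM in the untreated libraries (log2 fold change -0.05 ± 0.10 SE, adjusted p = 0.748 by edgeR). H3c6 and H3c3 overlapped between the groups, and the sign of H3c3 turned without budesonide replicate 2.

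H4 genes encode identical or nearly identical proteins from many separate copies. Of 12 genes 11 were tested and 5 fell, with a median of -0.26. H4c2 had 44.1, 38.4 and 50.4 CPM in the budesonide libraries and 55.3, 64.4 and 61.9 CPM in the untreated libraries (log2 fold change -0.46 ± 0.09 SE, adjusted p = 6.59e-05 by edgeR). H4c8 had 45.2, 36.2 and 47.2 CPM in the budesonide libraries and 64.9, 57.6 and 53.3 CPM in the untreated libraries (log2 fold change -0.46 ± 0.09 SE, adjusted p = 0.000121 by edgeR). H4c6 had 24.1, 22.7 and 23.3 CPM in the budesonide libraries and 36.6, 26.996 and 35.2 CPM in the untreated libraries (log2 fold change -0.49 ± 0.11 SE, adjusted p = 0.000738 by edgeR). None of these 3 overlapped between the groups, and DESeq2 called all 3.

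H4c1 had 39.03, 28.4 and 34.4 CPM in the budesonide libraries and 50.5, 38.8 and 40.7 CPM in the untreated libraries (log2 fold change -0.35 ± 0.11 SE, adjusted p = 0.0121 by edgeR), with budesonide replicate 1 just above untreated replicate 2. H4c4, with the most H4 reads, had 159, 128 and 157 CPM in the budesonide libraries and 181, 159 and 163 CPM in the untreated libraries and just missed the threshold (log2 fold change -0.18 ± 0.07 SE, adjusted p = 0.0503 by edgeR). H4c9, chosen after its values were seen as the member with the most positive fold change, had 12.96, 12.5 and 12.9 CPM in the budesonide libraries and 11.4, 11.8 and 13.04 CPM in the untreated libraries (log2 fold change 0.08 ± 0.15 SE, adjusted p = 0.749 by edgeR).

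The 3 testis variants were low and fell. H2ac1 had 1.83, 3.09 and 2.21 CPM in the budesonide libraries and 5.79, 7.03 and 5.97 CPM in the untreated libraries (log2 fold change -1.39 ± 0.27 SE, adjusted p = 6.66e-05 by edgeR). H2bc1 had 1.27, 0.736 and 1.65 CPM in the budesonide libraries and 3.66, 2.53 and 3.14 CPM in the untreated libraries (log2 fold change -1.36 ± 0.39 SE, adjusted p = 0.00593 by edgeR), and H1f6 had 2.40, 1.77 and 2.76 CPM in the budesonide libraries and 6.86, 4.4993 and 3.46 CPM in the untreated libraries (log2 fold change -1.11 ± 0.31 SE, adjusted p = 0.00415 by edgeR). A level of 3 reads in a library is 0.422 to 0.552 CPM, so the lower budesonide values rest on few reads, and DESeq2 called H2ac1 alone of these 3. Markers of spermatocytes and spermatids, 5 genes, summed to 2.02 to 2.35 CPM in the budesonide libraries and 2.44 to 4.92 CPM in the untreated libraries, none of them at 0 in all libraries, and their part in these results was not tested. Without the 3 variants, 27 of 52 tested members fell, with a median of -0.30.

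Nearly all members lie in clusters on chromosomes 13 and 3. Of the 54 members on chromosome 13, 49 were tested and 29 fell. Of the 10 on chromosome 3, 5 were tested and none fell in edgeR or DESeq2 (0 genes each), 1 had an unadjusted p under 0.05, and their log2 fold changes ran from -0.20 to -0.01. Of all tested genes 13.5% fell, so 0 fallen among 5 genes says little about chromosome 3. This 0 did not hold in every fit: H2ac20 was called lower by edgeR with upper quartile scaling (adjusted p = 0.0167), without scaling factors (adjusted p = 0.00851, with H2bc18 also called) and without budesonide replicate 3 (adjusted p = 0.0153). Members with a promoter entry on chromosome 13 lie in 2 stretches more than 1000000 bases apart (GRCm38.p6). In the stretch chr13:21716184-22043197, 8 of 18 tested members fell, with a median of -0.32. In the stretch chr13:23530894-23934436, 19 of 28 fell, with a median of -0.33. In the first of these stretches 17 of 22 members had under 50% of their 50-base windows in no other gene, and in the second 8 of 28.

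Of the 66 members 11 were not tested, with 0 to 49 reads over all 6 libraries: H2ac14, H2ac18, H2ac19, H2ac23, H2ac24, H2bc21, H2bc23, H2bc24, H3c14, H3c15 and H4c17. Of these, 9 are near-copies of other genes, with 0 to 36.5% of their 50-base windows found nowhere else among the reference transcripts, and how the counting treated such reads is not given in the sources used here. H2bc21 was unique along its whole length and had 25 reads, and H2bc24 could not be matched to the reference. RefSeq lists H2ac14 as a pseudogene. Among members with at least 50% of their windows unique, 19 of 32 tested fell, with a median of -0.29, and among those below 50%, 11 of 23 fell, with a median of -0.32.

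The length of the annotated 3′ end was set beside the fold changes, because polyadenylated histone transcripts are known to run past the stem-loop. In 19 members the reference transcript ran over 100 bases past the stem-loop, and 9 of the 17 tested fell, with a median of -0.28. In 22 members it ended within 100 bases of it, and 9 of 17 tested fell, with a median of -0.42. Among the 24 with no match, 12 of 21 tested fell, with a median of -0.32. Of 4 members whose human counterparts are known to give polyadenylated transcripts, H2ac6 and H2bc4 fell in edgeR but not in DESeq2, H1f2 was not called and H2bc21 was not tested.

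**Figure D4:**
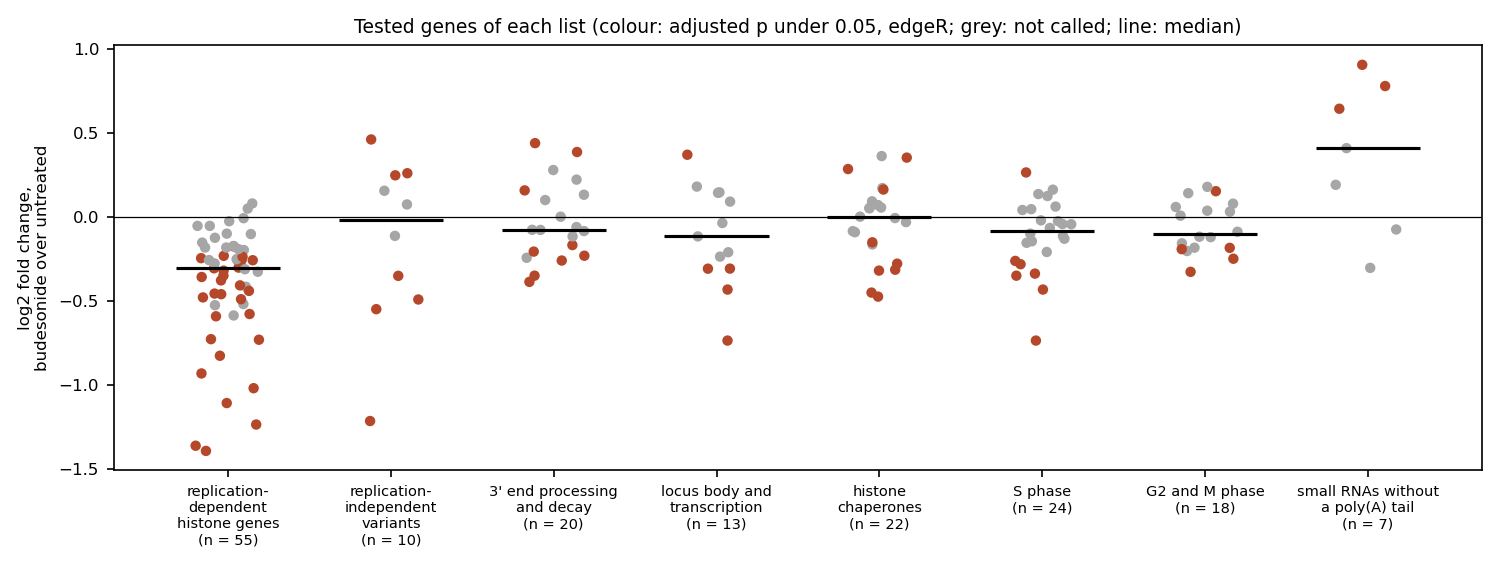
Log2 fold change (vertical axis, budesonide over untreated) of each tested gene in the histone genes and 7 related lists; coloured points passed the threshold in edgeR, grey points did not, and lines are medians. The histone genes have their median at -0.31 with no coloured point above 0, and the small RNAs have theirs at 0.41.

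Small RNAs that carry no poly(A) tail were set beside the histone genes. Of 13 genes in that list 7 were tested, and 3 rose in edgeR. None fell in edgeR or DESeq2, or was lower with an unadjusted p under 0.05 (0 genes each). Of all tested genes 15.2% rose and 13.5% fell, so 0 fallen among 7 genes says little. The median log2 fold change was 0.41. Scarna6, a Cajal body RNA, had 29.9, 20.6 and 26.8 CPM in the budesonide libraries and 14.5, 12.4 and 14.5 CPM in the untreated libraries (log2 fold change 0.91 ± 0.14 SE, adjusted p = 6.79e-07 by edgeR). Scarna2, another Cajal body RNA, had 81.4, 67.4 and 81.8 CPM in the budesonide libraries and 59.3, 44.4 and 43.7 CPM in the untreated libraries (log2 fold change 0.64 ± 0.10 SE, adjusted p = 1.52e-05 by edgeR). Rmrp, the RNA of RNase MRP, was chosen after its values were seen. It had 1096, 655 and 1052 CPM in the budesonide libraries and 862, 593 and 655 CPM in the untreated libraries, with overlapping groups (log2 fold change 0.41 ± 0.27 SE, adjusted p = 0.373 by edgeR). These untailed RNAs were higher or not called where the histone genes were lower, and their part in the histone result was not tested.

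Replication-independent variants moved in both directions. Of 10 tested 3 rose and 4 fell, with a median of -0.02. Whether each variant is made throughout the cell cycle, or from polyadenylated mRNAs alone, was not tested. For this list and those that follow, the share of all tested genes that changed was 28.7%. H3f3b, which encodes H3.3, averaged 477 ± 18.1 CPM in the budesonide libraries and 401 ± 17.6 CPM in the untreated libraries (SD, n = 3 each) (log2 fold change 0.25 ± 0.06 SE, adjusted p = 0.000392 by edgeR). H3f3a, the other main H3.3 gene, averaged 106 ± 6.82 CPM in the budesonide libraries and 88.9 ± 9.17 CPM in the untreated libraries (SD, n = 3 each) (log2 fold change 0.26 ± 0.07 SE, adjusted p = 0.00489 by edgeR). Macroh2a1, a variant linked to silent chromatin, averaged 106 ± 4.17 CPM in the budesonide libraries and 77.03 ± 2.04 CPM in the untreated libraries (SD, n = 3 each) (log2 fold change 0.46 ± 0.07 SE, adjusted p = 5.39e-07 by edgeR). All 3 rose.

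Macroh2a2, the paralog of Macroh2a1, averaged 9.73 ± 0.428 CPM in the budesonide libraries and 22.6 ± 0.743 CPM in the untreated libraries (SD, n = 3 each) and fell 2.32-fold (log2 fold change -1.21 ± 0.14 SE, adjusted p = 9.9e-10 by edgeR). H2ax, the variant phosphorylated at DNA breaks, averaged 205 ± 18.1 CPM in the budesonide libraries and 261 ± 14.9 CPM in the untreated libraries (SD, n = 3 each) (log2 fold change -0.35 ± 0.06 SE, adjusted p = 1.52e-05 by edgeR). Cenpa, the centromeric H3, averaged 56.98 ± 2.56 CPM in the budesonide libraries and 80.003 ± 8.22 CPM in the untreated libraries (SD, n = 3 each) (log2 fold change -0.49 ± 0.08 SE, adjusted p = 2.61e-06 by edgeR). H1f0, the linker histone of slowly dividing cells, averaged 27.5 ± 1.34 CPM in the budesonide libraries and 40.3 ± 0.667 CPM in the untreated libraries (SD, n = 3 each) (log2 fold change -0.55 ± 0.10 SE, adjusted p = 1.7e-05 by edgeR). These 3 also fell. H2az1, H2az2 and H2aj were not called, with log2 fold changes of -0.11, 0.16 and 0.07.

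Among 20 genes of histone mRNA 3′ end processing and decay, 3 rose and 6 fell, with a median of -0.08. Slbp, which binds the stem-loop shown above, had 93.1, 93.4 and 94.9 CPM in the budesonide libraries and 118, 125 and 115 CPM in the untreated libraries, without overlap (log2 fold change -0.35 ± 0.07 SE, adjusted p = 4.2e-05 by edgeR). Snrpb, a core protein of spliceosomal and U7 particles, fell with a log2 fold change of -0.39 (6.56e-06 after adjustment in edgeR). Tut7, which adds uridines to RNA ends, and Dis3l2, which degrades uridylated RNA, rose with log2 fold changes of 0.44 and 0.39 (adjusted p-values from edgeR 4.77e-06 and 0.000332).

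In the list of 13 histone locus body and transcription genes, 1 rose and 4 fell, with a median of -0.12. Npat, the coactivator of histone genes, had 64.9, 64.5 and 61.96 CPM in the budesonide libraries and 58.2, 63.1 and 58.3 CPM in the untreated libraries (log2 fold change 0.09 ± 0.08 SE, adjusted p = 0.423 by edgeR), with overlapping groups. Ccne1 and Ccne2, the cyclins E, fell with log2 fold changes of -0.43 and -0.74, and E2f1, a transcription factor of S phase entry, rose, at 0.37 (adjusted p-values from edgeR 3.29e-06, 0.000261 and 0.00292).

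Of 22 histone chaperones 3 rose and 6 fell, with a median of -0.00. Ssrp1, a subunit of the FACT complex, had a log2 fold change of -0.45, and Anp32e, which removes H2A.Z, one of -0.47, and both fell. Hat1, which acetylates new H4, and Ubn1, a subunit of the H3.3 chaperone HIRA, rose, at 0.35 and 0.29. Of 24 S phase genes 1 rose and 6 fell, with a median of -0.08, and of 18 G2 and M phase genes 1 rose and 4 fell, with a median of -0.10. The shares that changed, 29.2% and 27.8%, are near the 28.7% of all tested genes. Mcm6, a subunit of the replicative helicase, rose (0.27), and the mitotic genes Plk1 and Cdc20 fell (-0.33 and -0.25). Some of the lists share genes (Slbp, Casp8ap2, Ccne1 and Ccne2), and the part of the cell cycle in the histone difference was not tested.

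The cell type markers differed between the groups too. Pluripotency markers (7 genes, led by Pou5f1) summed to 1879 to 2086 CPM in the budesonide libraries and 1295 to 1336 CPM in the untreated libraries. Streak and tailbud markers (7 genes) summed to 10.003 to 15.259 CPM in the budesonide libraries and 264 to 284 CPM in the untreated libraries. Primitive endoderm markers (7 genes) summed to 12.4 to 15.7 CPM in the budesonide libraries and 23.3 to 32.2 CPM in the untreated libraries, and feeder fibroblast markers (7 genes) to 11.6 to 12.8 CPM in the budesonide libraries and 18.2 to 19.5 CPM in the untreated libraries, both lower without overlap. Trophectoderm markers (6 genes) summed to 32.7 to 39.03 CPM in the budesonide libraries and 30.95 to 43.1 CPM in the untreated libraries, and blood markers (5 genes) to 7.80 to 9.86 CPM in the budesonide libraries and 8.84 to 9.98 CPM in the untreated libraries, both with overlap. No marker was at 0 in all libraries. The part of these marker differences in the histone result was not tested.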

How the data were processed

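RNA was sequenced in 3 budesonide and 3 untreated libraries, from a stranded mRNA kit per the labels' protocols. The authors deposited raw read counts per gene symbol, and a normalized signal for 33560 genes that, checked here, was the count divided by a DESeq2 size factor to within 0.0056 reads and left out genes with at most 10 reads. Per the submitters' processing notes the tools were STAR 2.7.5c, featureCounts 2.0, cutadapt 2.5, bcl2fastq and DESeq2, with the build GRCm39. The sources used here do not give the strand setting or the treatment of reads that map to several genes, so near-identical histone genes can trade reads, and reads of overlapping genes cannot be told apart.

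Counts were tested with edgeR 4.0.16 in R 4.3.3 (filterByExpr with minimum count 10 and minimum total 15, TMM, robust quasi-likelihood, group as the only term, Benjamini-Hochberg over all tested genes). DESeq2 1.42.0 and limma 3.58.1 were alternatives, as were other scalings and filters, left-out libraries and a stricter threshold. Standard errors come from the F statistic. The common dispersion gave a coefficient of variation of 5.73% between libraries. On simulated data, with 50 genes changed at each size, the fit recovered 30% at 1.25-fold, 80% at 1.5-fold and 100% at 2-fold. It made 11 false calls. Libraries of a group differed by a chi-square of 1.42 to 3.12 per gene, so none repeated another. The members and lists were chosen with earlier results of these data known. Per histone type, the 3 genes with the highest mean CPM and up to 4 with the smallest p are named, as are genes whose call an alternative ends; from other lists, Slbp, Npat, the variants, and up to 2 risen and 2 fallen genes. Others are marked in the text or named by the comparison they belong to. Symbols were matched through RefSeq to GENCODE M21 (65 of 66 members), and coordinates come from the RefSeq promoter table (GRCm38.p6), a build other than that of the counts. CPM per kb divides by the longest reference transcript.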

Additional observations from a re-analysis of the deposited data

How the results depend on the processing

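The count of 30 histone genes lower was 14 with DESeq2, 18 at an adjusted p under 0.01, 3 when tested against a 1.5-fold change, and 19 among members with mostly unique sequence, an alternative that tests fewer members and was added after seeing the data. Under the other settings it ran from 25 to 37, and from 22 to 30 when 1 library was left out (22 without budesonide replicate 2). No member rose under any setting. A total of 14 members were lower in all 15 fits at the 0.05 threshold (DESeq2, limma and left-out libraries included): H1f1, H1f4, H1f10, H2ac1, H2ac15, H2bc6, H2bc7, H2bc9, H2bc11, H2bc14, H3c4, H4c2, H4c6 and H4c8. The median log2 fold change ran from -0.38 to -0.26, and the summed ratio from 0.799 to 0.878. Testing against 1.5-fold gave 723 changed genes in all, in place of 4917, and 0 variants higher and 1 lower, in place of 3 and 4; a larger required change calls fewer genes by construction. With a library left out, 4044 to 4614 genes changed, 2 to 4 variants rose and 4 fell.

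Whether the replicate numbers pair the samples could not be decided with 3 libraries a group. The correlations of same-numbered deviations were 0.04, 0.06 and -0.02, and 4 of 6 samples correlated best with their own number. With a replicate block 34 members were lower. Without scaling factors 38.6% of changed genes were higher and with upper quartile scaling 43.1%, in place of 52.9%, and the median of all genes then moved to -0.10 and -0.07. Of 714 values of 42 named genes under the alternatives, 612 kept their direction and side of the threshold, 68 lost a call, 26 gained one and 8 turned sign. The 8 were all of genes not called: H1f2 at -0.0031 with upper quartile scaling, -0.030 without scaling factors and -0.076 without budesonide replicate 3; H2aj at -0.0041 without scaling factors and -0.026 without budesonide replicate 3; H2bc3 at 0.093 without budesonide replicate 2 and 0.084 without untreated replicate 1; and H3c3 at 0.085 without budesonide replicate 2. With 1 library left out their ranges were -0.076 to 0.13 for H1f2, -0.026 to 0.18 for H2aj, -0.15 to 0.093 for H2bc3 and -0.13 to 0.085 for H3c3. The cause was not tested. With 3 libraries a group and changes this small, a member that was not called is not shown to be unchanged.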

Other observations

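Among the linker histones, H1f2 was set against the other somatic H1 genes after its values were seen. The log2 ratio of H1f2 over the sum of H1f1, H1f3, H1f4 and H1f5 was -1.05, -0.97 and -0.73 in the budesonide libraries and -1.07, -1.25 and -1.33 in the untreated libraries. The groups did not overlap, and budesonide replicate 1 and untreated replicate 1 were close to each other. The ratio was chosen because the other 4 genes fell and H1f2 was not called, so it restates those values, and no test is given.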
